A study of Mus musculus with 8 samples.

Results

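Aldehyde dehydrogenases and glutathione transferases are 2 groups of detoxifying enzymes, and their transcripts were followed in mouse mammary tumor organoids with and without the transcription factor SOX4. The members were all genes whose symbol begins with Aldh and a digit (Aldh1a1 and Aldh1a3 left out), with Gst and a class letter (alpha, mu, pi, theta, omega, kappa or zeta, and Gstcd), or with Mgst and a digit, without annotated pseudogenes. This rule gave 45 genes of 38293 in the bulk files, of which 19 were aldehyde dehydrogenases, 23 were Gst genes and 3 were microsomal transferases. At least 1 read was counted for 39 of them in the bulk lines, 30 passed the filter on low counts, and 38 were listed in at least 1 single-cell file.

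The organoids came from mammary tumors of mice carrying MMTV-PyMT, MMTV-Cre and Ecadherin-mCFP, in which a mammary virus promoter drives the polyoma middle T antigen in mammary epithelium, and all lines, control and knockout, carry these alleles. Bulk RNA-sequencing covered 2 control lines (WT1 and WT3) and 3 lines with a CRISPR knockout of SOX4, written SOX4KO here (H7, M4 and H4). Single-cell RNA-sequencing covered 1 control library (GR17) and 2 SOX4KO libraries (GR18 and GR19). Every line had been split as single cells and cultured with 12.5 ng/mL FGF2 over 4 days. Each line is 1 clone and gave 1 library within an assay, so a replicate is a line, and the spread between SOX4KO lines includes differences between clones. Ages and sexes of the mice are not given in the labels, and the labels do not say which bulk lines correspond to GR17, GR18 and GR19.

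Aldehyde dehydrogenases oxidize aldehydes, which arise from lipid peroxidation, alcohol, amino acids and one-carbon metabolism, to the less reactive acids. Cytosolic glutathione transferases join glutathione to electrophiles, and the microsomal transferases do so at membranes. In the mammary gland the activity of aldehyde dehydrogenases is widely used to enrich for progenitor cells, and many genes of both groups are known to respond to the stress-response factor NRF2 through the antioxidant response element.

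Reads counted on genes ranged from 3050323 to 4678497 per bulk library, and the reads placed on no gene made up 46.6% to 64.7% of those that aligned to one place. The single-cell libraries held 362 to 369 cells with at least 1000 UMIs and 7714119 to 8296953 UMIs in these cells. Sox4, the targeted gene, had 295 and 374 normalized CPM in the control lines and 199, 179 and 299 in H7, M4 and H4 (log2 fold change -0.57, adjusted p = 0.277, edgeR), so its transcript level does not separate the groups. The paper states that the 2 knockout lines it selected first carried indels on both alleles and lacked SOX4 protein on western blots. A further SOX4KO line was added for bulk RNA-sequencing, and the paper's main text reports no western blot for it. That text also does not say which of H7, M4 and H4 the added line is. In the single-cell libraries Sox4 stood at 118 CPM in GR17, 82.5 in GR18 and 110 in GR19. Epithelial keratins marked the bulk samples: Krt8 stood at 464 ± 11.1 normalized CPM (SD, n = 2) in the control lines against 391 ± 74.7 (SD, n = 3) in the SOX4KO lines. Endothelial markers summed to 1.37 to 3.61 CPM and adipocyte markers to 0 to 0.428 CPM over the 5 lines, fibroblast markers to 53.4 to 111 CPM and immune markers to 112 to 185 CPM, the last mostly Cd14.

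The upstream sequences of 4 members follow, because Gsto1, Gstk1 and Gstm5 rose in the bulk SOX4KO lines and Mgst1 was over 2-fold higher in both SOX4KO single-cell libraries. They are the 250 bases before the start site, 5′ to 3′ on the gene's strand, from RefSeq on GRCm38.p6, whereas the bulk files use an earlier build. Capitals mark a match to the antioxidant response core TGACNNNGC on either strand.
Gsto1, chr19:47854723-47854972, plus strand: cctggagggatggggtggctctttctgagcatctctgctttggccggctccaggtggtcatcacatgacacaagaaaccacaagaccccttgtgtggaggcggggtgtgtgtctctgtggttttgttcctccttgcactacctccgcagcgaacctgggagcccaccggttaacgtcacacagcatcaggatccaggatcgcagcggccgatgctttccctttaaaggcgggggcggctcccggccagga
Gstk1, chr6:42245685-42245934, plus strand: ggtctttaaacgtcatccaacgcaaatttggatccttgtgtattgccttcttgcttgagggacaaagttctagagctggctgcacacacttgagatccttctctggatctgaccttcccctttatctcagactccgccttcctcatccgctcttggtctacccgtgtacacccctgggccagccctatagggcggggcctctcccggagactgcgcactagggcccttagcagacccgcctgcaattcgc
Gstm5, chr3:107895604-107895853, plus strand: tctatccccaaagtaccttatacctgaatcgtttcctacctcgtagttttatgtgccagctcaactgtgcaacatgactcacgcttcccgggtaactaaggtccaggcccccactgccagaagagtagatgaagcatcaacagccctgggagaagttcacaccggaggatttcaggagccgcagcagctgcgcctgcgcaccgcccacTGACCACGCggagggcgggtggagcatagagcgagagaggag
Mgst1, chr6:138140277-138140526, plus strand: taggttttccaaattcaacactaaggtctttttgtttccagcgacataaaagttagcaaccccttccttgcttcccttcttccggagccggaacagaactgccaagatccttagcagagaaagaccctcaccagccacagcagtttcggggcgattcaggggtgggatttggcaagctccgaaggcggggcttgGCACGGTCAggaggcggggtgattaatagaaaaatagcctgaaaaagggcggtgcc
The core lay 42 to 34 bases before the start site in Gstm5 and 56 to 48 bases before it, on the opposite strand, in Mgst1, and these letters were absent from the windows shown for Gsto1 and Gstk1. Mgst1 has a second annotated start site, whose upstream window (chr6:138141337-138141586) is not shown and held no match. Aldh18a1 also rose in the bulk SOX4KO lines, and Gstt3 was also over 2-fold higher in both SOX4KO single-cell libraries. Their windows and those of Gstt1 and Gstp1 were searched too, are not shown and held no match. In windows of 300 bases (250 before and 50 after a start site), the core was found in 6 of the 49 windows of the 38 members matched (Aldh1a2, Aldh9a1, Gsta3, Gstm5, Gstm7 and Mgst1), or 12.2%, beside 12.4% of all 32851 windows. The SOX letters AACAAT were found in 3 of the 49 windows (6.12%), of Gsta2 and Gstm7, beside 10.7% of all windows, and AACAAAG in 1 (2.04%), of Gstcd, beside 5.85%. A match describes letters in a window and does not show a bound site.

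In bulk RNA, 4 of the 30 tested members were higher in the SOX4KO lines (Gsto1, Gstk1, Gstm5 and Aldh18a1) and 1 was lower (Gsta4), at an adjusted p under 0.1 by edgeR's quasi-likelihood test with Benjamini-Hochberg adjustment over all 11682 genes. The shares among all 11682 genes were 4.1% higher and 2.17% lower. The fold change was above 0 for 21 members and below 0 for 9, with a median log2 fold change of 0.27 against 0.01 over all genes. The lines of the groups did not overlap for 9 members that were higher and 2 that were lower in SOX4KO, against 19.0% and 17.9% of all genes. Gsto2, among these 9, passed the filter on low counts through the SOX4KO lines, where it was high. Its place in these counts and in the median was partly set by the filter. In bulk samples, fewer cells of a type and less RNA per cell cannot be told apart.

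**Figure D1:**
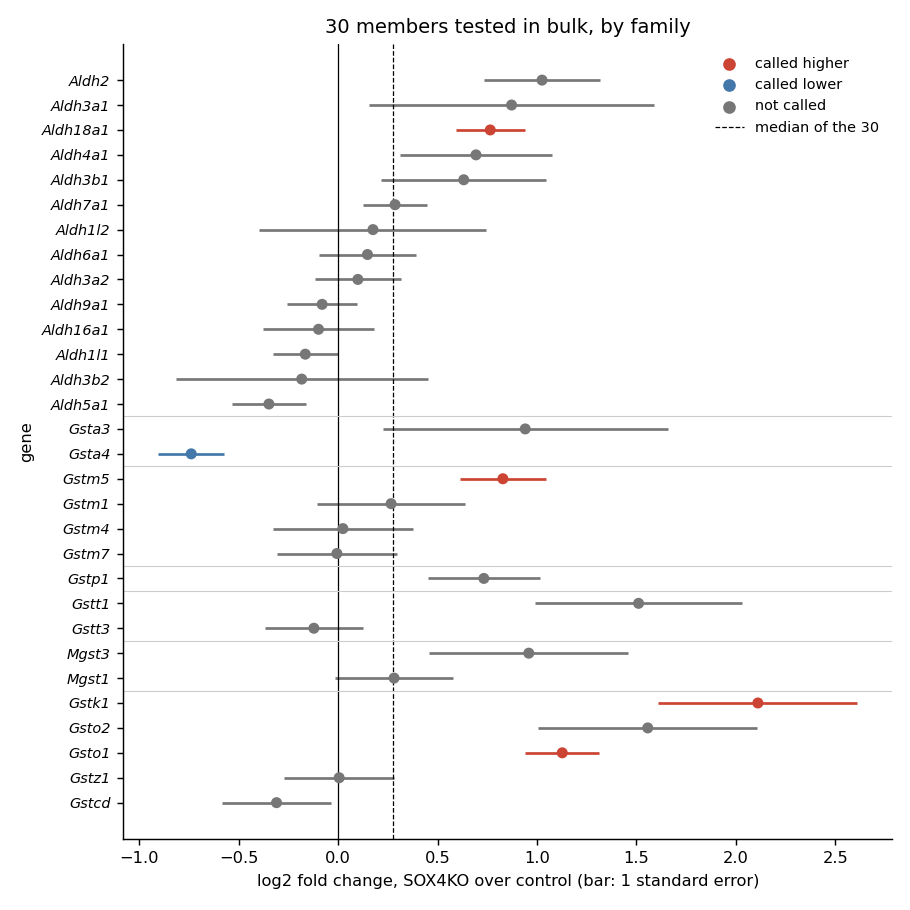
Log2 fold changes (x axis, SOX4KO over control, 3 against 2 lines) of the 30 members tested in bulk (y axis), grouped by family, with bars of 1 standard error. Gstk1, Gsto1, Gstm5 and Aldh18a1 are called higher, Gsta4 is called lower, and the dashed line marks the members' median of 0.27.

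The omega and kappa transferases showed the largest called changes. Gsto1 (ENSMUSG00000025068), a transferase known for glutathione-dependent reductions such as that of dehydroascorbate, had 66.5 and 64.7 normalized CPM in WT1 and WT3 and 122, 158 and 151 in H7, M4 and H4. The control lines nearly coincided and every SOX4KO line lay above both, with a log2 fold change of 1.13 (SE 0.19, where SE is the standard error, with adjusted p = 0.0236, edgeR). Gstk1 (ENSMUSG00000029864), the kappa enzyme of mitochondria and peroxisomes, had 15.8 and 6.37 normalized CPM in WT1 and WT3 and 41.7, 73.4 and 27.3 in H7, M4 and H4. The groups did not overlap, although the SOX4KO lines spanned a 2.69-fold range, and the log2 fold change was 2.11 (SE 0.50, adjusted p = 0.0654, edgeR). Gsto2, the neighbour of Gsto1, was counted rarely, at 0.777 and 0.996 normalized CPM in WT1 and WT3 and 2.61, 2.88 and 2.63 in H7, M4 and H4, and its log2 fold change of 1.56 (SE 0.55) did not pass the threshold (adjusted p = 0.184, edgeR). Gstz1, which isomerizes maleylacetoacetate in tyrosine breakdown, had 52.3 and 51.2 normalized CPM in the control lines and 36.4 to 72.7 in the SOX4KO lines, which lay on both sides of the controls. Gstcd, which carries a transferase-like domain, had 22 and 16.9 normalized CPM in WT1 and WT3 and 19.8, 13.3 and 13.7 in H7, M4 and H4, and the groups overlapped (log2 fold change -0.31, SE 0.27, adjusted p = 0.626, edgeR).

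Among the alpha transferases, Gsta4 (ENSMUSG00000032348), whose product is known for conjugating the lipid aldehyde hydroxynonenal, was the only member called lower. It had 89.8 and 95.4 normalized CPM in WT1 and WT3 and 50.6, 60.8 and 55.3 in H7, M4 and H4. All 3 SOX4KO lines lay well under both controls and close to each other, with a log2 fold change of -0.74 (SE 0.17, adjusted p = 0.0566, edgeR). Gsta3 had 0.777 to 6.23 normalized CPM over the 5 lines, with overlapping groups.

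Among the mu and pi transferases, Gstm5 (ENSMUSG00000004032) rose from 53.1 and 50.8 normalized CPM in WT1 and WT3 to 92.9, 112 and 72.8 in H7, M4 and H4. Its log2 fold change was 0.83 (SE 0.21, adjusted p = 0.0828, edgeR). Gstm1 was at a like level in the control lines, 56.7 and 63.3 normalized CPM, and at 54.5, 45.0 and 116 in H7, M4 and H4. H4 alone lay above the controls, and the log2 fold change was 0.27 (SE 0.37, adjusted p = 0.776, edgeR). Gstm4 (log2 fold change 0.02) and Gstm7 (-0.01) had overlapping groups. Gstp1, the pi enzyme, had 6.73 and 7.77 normalized CPM in WT1 and WT3 and 12.3, 12.6 and 11.5 in H7, M4 and H4, so the groups were apart, but its log2 fold change of 0.73 (SE 0.28) did not pass the threshold (adjusted p = 0.221, edgeR). Of the sequences of 50 bases in annotated Gstp1 transcripts, 33.7% also occur in other genes, chiefly Gstp2, and the share was 18.9% for Gstm1, 9.44% for Gstm5 and 0 for Gsto1, Gstk1, Gsta4 and Aldh18a1. Reads that aligned to several places were not counted on genes, so the levels of Gstp1 and Gstm1 are uncertain.

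The theta and microsomal transferases varied between clones. Gstt1 had 20.7 and 5.58 normalized CPM in WT1 and WT3 and 27.9, 28.4 and 52.9 in H7, M4 and H4. The SOX4KO lines lay above both controls, which themselves were far apart, and the log2 fold change of 1.51 (SE 0.52) did not pass the threshold (adjusted p = 0.172, edgeR). Gstt3, the most counted theta gene, had 154 and 166 normalized CPM in WT1 and WT3 and 112, 131 and 198 in H7, M4 and H4 (log2 fold change -0.12, SE 0.25, adjusted p = 0.853, edgeR), with H4 above and the other SOX4KO lines below the controls. Mgst1, the main microsomal enzyme, had 251 and 312 normalized CPM in WT1 and WT3 and 231, 315 and 479 in H7, M4 and H4 (log2 fold change 0.28, SE 0.30, adjusted p = 0.693, edgeR). H4 was again the highest line and the groups overlapped. Mgst3 was at 8.80 and 8.36 normalized CPM in the controls and at 7.83, 28.8 and 14.4 in H7, M4 and H4.

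Of the 14 aldehyde dehydrogenases tested, 1 was called higher and 0 lower, beside 4.1% and 2.17% of all genes. Aldh18a1 (ENSMUSG00000025007), the pyrroline carboxylate synthase of proline synthesis, had 62.4 and 57.4 normalized CPM in WT1 and WT3 and 108, 107 and 90.3 in H7, M4 and H4. Its groups were well apart, with a log2 fold change of 0.76 (SE 0.17, adjusted p = 0.0577, edgeR). Aldh2, the mitochondrial enzyme that clears acetaldehyde, was the most counted member, at 402 and 492 normalized CPM in WT1 and WT3 and 755, 705 and 1267 in H7, M4 and H4. Every SOX4KO line exceeded both controls, and H4 lay far above the other two. With a log2 fold change of 1.03 (SE 0.29), Aldh2 stood just outside the threshold (adjusted p = 0.108, edgeR). It is also the member through which the summed reads of all aldehyde dehydrogenases differ, at 960 and 1008 CPM in WT1 and WT3 and 1344, 1292 and 1861 in H7, M4 and H4.

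The proline, lysine and folate enzymes of the family showed smaller differences. Aldh7a1, of lysine breakdown, had 65.0 and 61.5 normalized CPM in the controls and 74.2 to 80.3 in the SOX4KO lines, apart but not called (log2 fold change 0.29, adjusted p = 0.409, edgeR). Aldh5a1, the succinate semialdehyde dehydrogenase, had 33.4 and 31.9 normalized CPM in WT1 and WT3 and 25.3, 24.1 and 27.3 in H7, M4 and H4, also apart and not called (log2 fold change -0.35, SE 0.18, adjusted p = 0.381, edgeR). Aldh4a1, which works opposite Aldh18a1 in proline breakdown, had 18.6 and 10.2 normalized CPM in the controls and 14.4, 31.0 and 24.4 in H7, M4 and H4. Aldh1l1, the cytosolic formyltetrahydrofolate dehydrogenase, had 158 and 136 normalized CPM in WT1 and WT3 and 138, 131 and 125 in H7, M4 and H4 (log2 fold change -0.17, SE 0.16, adjusted p = 0.673, edgeR). Its mitochondrial counterpart Aldh1l2 spanned a 4.17-fold range among the SOX4KO lines.

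Aldh3b2 had 3.37 and 2.39 normalized CPM in WT1 and WT3 and 1.04, 4.68 and 2.16 in H7, M4 and H4 (log2 fold change -0.18, SE 0.63, adjusted p = 0.919, edgeR). The sign of its fold change turned without WT1 (0.08) or without H7 (0.20). Aldh3a1, an enzyme known for its abundance in the cornea, was rare in bulk at 4.40 and 1.99 normalized CPM in the controls and 1.57, 5.76 and 9.82 in H7, M4 and H4, a 6.27-fold range among the SOX4KO lines. The log2 fold changes of Aldh3a2 (0.10), Aldh3b1 (0.63), Aldh6a1 (0.15), Aldh9a1 (-0.08) and Aldh16a1 (-0.10) came with overlapping groups and none was called. The 15 members that were not tested had at most 22 reads in any line, and 6 of them (Aldh1b1, Aldh3b3, Gsta1, Gstm3, Gstp3 and Gstt4) had none.

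**Figure D2:**
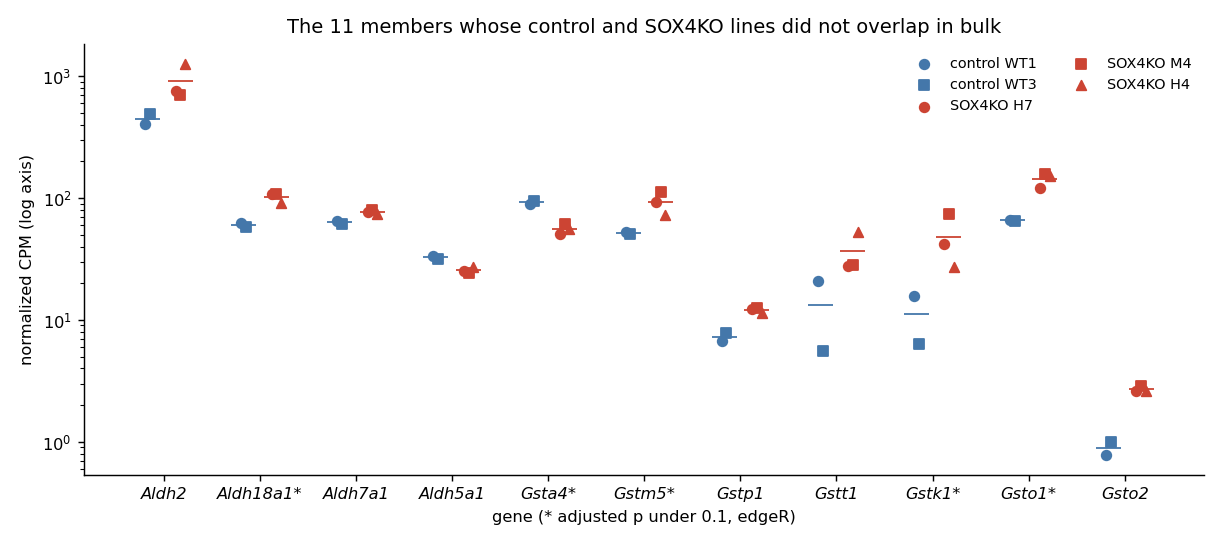
Normalized CPM (y axis, log scale) of the 11 members whose control and SOX4KO lines did not overlap, with 1 point per line and a short line at each group mean. Gsto1, Gstk1, Gstm5, Aldh18a1 and Gsta4 are marked as called, and H4 stands apart upward for Aldh2 and Gstt1.

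Per kilobase of annotated exon length, the highest mean levels in control lines were those of Mgst1 (140 normalized CPM per kb), Aldh2 (87.1) and Gsta4 (73.2). In SOX4KO lines they were those of Aldh2 (177), Mgst1 (170), Gstm5 (72.3) and Gsto1 (70.9), while Gsta4 stood at 43.9.

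The bulk calls depended on which lines were kept. Without WT1 or without WT3 a single control line remains, so only fold changes are given for these fits. The log2 fold changes of the 5 called members kept their signs, and that of Gstt1 was 2.71 without WT1 and 0.82 without WT3. Without H7, the adjusted p was 0.105 for Aldh18a1, 0.106 for Gsta4 and 0.134 for Gstm5, and without H4 it was 0.108 for Gsta4 (edgeR). Aldh2 was called without M4 (adjusted p = 0.0678, edgeR) and by DESeq2, which also called Gstt1. The median of the members was 0.10 without H4.

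Genes that supply, use or regulate these enzymes were counted from 4 lists. Of the genes that supply and recycle glutathione, 1 of 20 tested rose, Ggt5 (log2 fold change 1.56, SE 0.32, adjusted p = 0.0438, edgeR), a gamma-glutamyl hydrolase of glutathione conjugates, and 0 fell. The subunits of glutamate cysteine ligase, the first step of glutathione synthesis, were not called: Gclc was at 63.7 ± 6.57 normalized CPM (SD, n = 2) in the control lines against 54.1 ± 7.89 (SD, n = 3) in the SOX4KO lines, and Gclm at 77.1 ± 7.05 and 94.3 ± 18.4. Of 3 glutathione peroxidases tested none was called by edgeR.

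Of NRF2 and genes known as its targets, 3 of 24 tested rose and 0 fell. These were Abcc1 (log2 fold change 1.18, adjusted p = 0.0275, edgeR), an exporter of glutathione conjugates, the transporter Abcc3 (3.87, adjusted p = 0.0222) and Osgin1 (1.55, adjusted p = 0.0554). Abcc3 was at 2.07 and 0.199 normalized CPM in the controls and 14.1, 14.8 and 18.2 in H7, M4 and H4. It passed the filter on low counts through the SOX4KO lines, where it was high. Nfe2l2, which encodes NRF2, was at 122 ± 12.3 normalized CPM (SD, n = 2) in the control lines against 124 ± 26.1 (SD, n = 3) in the SOX4KO lines, Keap1, its inhibitor, at 94.2 ± 3.36 and 102 ± 12.3, and Nqo1, a widely used target, at 220 ± 11 and 255 ± 92.2, with none called. Of the alcohol dehydrogenases and aldo-keto reductases, 1 of 7 tested fell, Akr1c13 (log2 fold change -3.60, adjusted p = 0.0158, edgeR), and 0 rose. Akr1c13 was at 12.7 and 17.3 normalized CPM in WT1 and WT3 and 0.261, 1.80 and 1.68 in H7, M4 and H4. It passed the filter on low counts through the control lines, where it was high. Markers of the epithelial lineages moved in the same lines: 4 of 11 basal markers tested rose and 0 fell, and 1 of 17 luminal markers rose while 3 fell. Basal markers summed to 18190 to 20000 CPM (without normalization factors) in control and 20340 to 22670 CPM in SOX4KO lines, and luminal markers to 4577 to 4726 and 2813 to 5450 CPM. Igfbp5, a secreted IGF-binding protein, made up most of the basal sum, at 16594 and 15448 normalized CPM in WT1 and WT3 and 15613, 17247 and 19110 in H7, M4 and H4. The other 10 basal markers tested summed to 2261 and 1496 normalized CPM in WT1 and WT3 and to 5363, 7643 and 2804 in H7, M4 and H4, higher in every SOX4KO line than in either control. The part of the markers in the members' values was not tested.

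For the single-cell data the UMIs of each library were added up, and no test was run, as there was 1 control library. Of the 38 members listed, 14 had at least 20 CPM on average. Gstt3 and Mgst1 were at least 2-fold higher in both SOX4KO libraries than in GR17, and Aldh3a1 was at least 2-fold lower in both. Aldh3a1 was above 20 CPM in GR17 alone, so it passed the minimum through the library where it was high. In the same way Gstk1, at 14.6, 31.2 and 17.7 CPM in GR17, GR18 and GR19, passed it through GR18. Over all 6303 genes past this minimum, 1.92% were higher and 0.317% lower by the same rule. The median log2 ratio of the 14 members was 0.27 in GR18 and 0.17 in GR19, against 0.01 and -0.05 over all genes, with 9 members above 0 in both libraries, 4 below 0 in both, and Aldh9a1 differing in sign.

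Mgst1 had 141 CPM in the control library, with an exact Poisson interval at 95% of 133 to 149, against 316 (304 to 329) in GR18 and 431 (417 to 446) in GR19. These intervals cover counting error only and not differences between clones. Gstt3 stood at 33.1 CPM (29.1 to 37.4) in GR17, 82.5 (76.4 to 89.1) in GR18 and 110 (103 to 117.04) in GR19. For both genes the 3 intervals were apart and GR19 was the highest. Its neighbour Gstt1 was under the minimum but moved further, from 1.81 CPM (0.992 to 3.05, 14 UMIs) in GR17 to 14.2 (11.7 to 17.1) in GR18 and 30.9 (27.2 to 34.9) in GR19.

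Aldh3a1 showed the largest fall among the 14 members. It had 704 UMIs in GR17 and 104 and 110 in GR18 and GR19, or 91.3 CPM (84.6 to 98.3), 13 (10.6 to 15.7) and 13.3 (10.9 to 16.0). In GR17 the 10 cells with the most Aldh3a1 UMIs held 15.6% of them and no cell had more than 17, so the level was not set by a few cells. Gsta4 stood at 265 CPM (253 to 276) in GR17, 148 (140 to 157) in GR18 and 112 (105 to 120) in GR19, lower in both SOX4KO libraries and at least 2-fold lower in GR19 alone. Gstm1 stood at 101, 43.6 and 50.7 CPM in GR17, GR18 and GR19, and was at least 2-fold lower in GR18 alone.

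Aldh2 stood at 175 CPM (166 to 184) in GR17, 239 (228 to 250) in GR18 and 227 (216 to 237) in GR19. Aldh3a2, the fatty aldehyde dehydrogenase, stood at 33.3, 50.9 and 54.4 CPM, and Aldh4a1 at 26.1, 52.3 and 40.5. Both SOX4KO intervals lay above the control interval for these 3 genes. Gstk1 was at 14.6 CPM (12.1 to 17.6) in GR17, 31.2 (27.5 to 35.3) in GR18 and 17.7 (15.0 to 20.8) in GR19, so only GR18 was clear of the control. Gsto1 was at 239 CPM (228 to 250) in GR17, 167 (158 to 176) in GR18 and 190 (181 to 199) in GR19, lower in both. Aldh18a1 and Gstm5 had SOX4KO intervals that overlapped the control's. Aldh7a1 stood at 65.6 CPM (60.0025 to 71.6) in GR17, 77.7 (71.7 to 84.0) in GR18 and 73.4 (67.7 to 79.5) in GR19, so GR18 lay just above the control interval and GR19 overlapped it. Below the minimum, Aldh1l2 stood at 5.96, 19.8 and 16.7 CPM and Aldh6a1, of valine breakdown, at 5.06, 17.5 and 15.7, in GR17, GR18 and GR19.

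**Figure D3:**
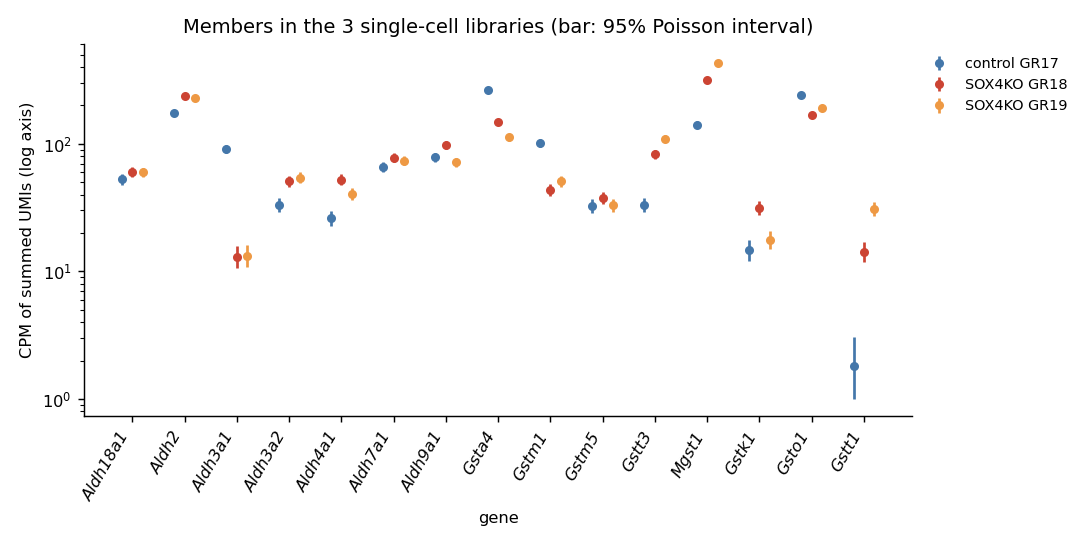
CPM of summed UMIs (y axis, log scale) in the control library GR17 and the SOX4KO libraries GR18 and GR19 for the 14 members past the minimum and Gstt1, with 95% Poisson intervals. Aldh3a1, Gsta4, Gstm1 and Gsto1 lie lower in both SOX4KO libraries, and Mgst1, Gstt3 and Gstt1 lie higher.

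Set beside the bulk values, 9 of the 14 members had the same sign in bulk and in both single-cell libraries, 4 had the opposite sign, and 1 differed between the single-cell libraries. Gstk1, among the 9, passed the CPM minimum through GR18 alone, and Aldh3a1, among the 4, through GR17 alone. Gsta4 was lower in both assays and Aldh2 was higher in both. Gsto1 was the called member with opposite signs, at a log2 fold change of 1.13 in bulk and log2 ratios of -0.51 and -0.33 in GR18 and GR19. Aldh3a1, Gstm1 and Gstt3 also had opposite signs, with none of them called in bulk. The assays differ in library method and in the number of control samples, the labels do not say whether they used the same clones, and their difference was not tested.

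**Figure D4:**
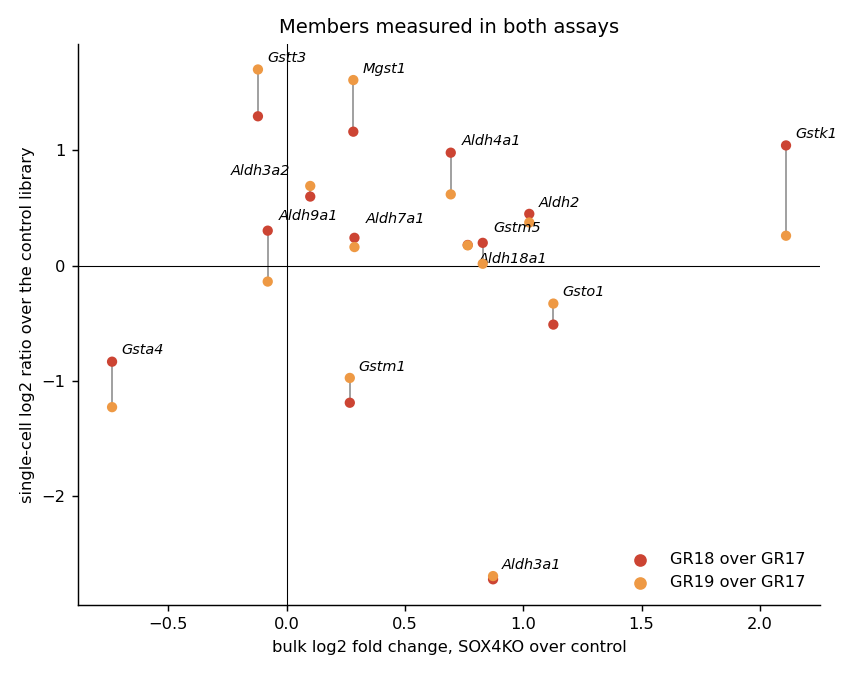
Bulk log2 fold change (x axis, SOX4KO over control) against the single-cell log2 ratio of GR18 and of GR19 over GR17 (y axis) for the 14 members measured in both, with a line joining the 2 libraries of a gene. Gsta4 lies in the lower left, and Gsto1, Gstm1 and Aldh3a1 lie in the lower right.

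The cells were grouped into 6 clusters without using the members. Cluster 2 was named basal-like, because 7 of 8 measured basal markers were higher in it than in the other cells, and clusters 4 and 5 luminal-like, because 8 and 9 of 12 luminal markers were. Clusters 1, 3 and 6 stayed unnamed, and they held 89.7% of the cells of GR17, 40.4% of GR18 and 36.2% of GR19. Top2a, a marker of dividing cells, stood at 32.3 CPM in cluster 2, 258 in cluster 4 and 18.5 in cluster 5. The basal-like and luminal-like classes therefore also differed in this marker, and its part in their contrast was not tested. Cluster 1 held 331 of the 369 cells of GR17 and only 12 and 6 cells of GR18 and GR19, and it may be that library and not a type. GR17 had 9 basal-like and 29 luminal-like cells, so basal-like and luminal-like cells were compared within GR18 (114 and 106 cells) and GR19 (99 and 132 cells), as a description with no test.

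In both SOX4KO libraries Mgst1 and Gstt1 were at least 2-fold higher in luminal-like cells and Gstk1 was at least 2-fold higher in basal-like cells, of 17 members with at least 20 CPM. In both libraries Gstt1 and Gstk1 were under 20 CPM in their lower class, so they passed the minimum through the class where they were high, and their place in the count was partly set by it. Over the 6262 genes past this minimum, 3.08% were higher in luminal-like and 3.88% in basal-like cells. Mgst1 stood at 240 CPM in basal-like and 588 in luminal-like cells of GR18, and at 265 and 729 in GR19. Gstt1 stood at 7.65 CPM (4.28 to 12.6) in basal-like and 34.1 (27.3 to 42) in luminal-like cells of GR18, and at 13.3 (8.43 to 19.9) and 57.4 (49.8 to 65.8) in GR19. It was also among the 10 leading genes of cluster 5. Gstk1 stood at 60.7 CPM (50.2 to 72.6) in basal-like and 16.4 (11.8 to 22.2) in luminal-like cells of GR18, and at 38.2 (29.5 to 48.5) and 9.0 (6.16 to 12.7) in GR19.

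Other members leaned the same way in both libraries at smaller size. Gstt3 stood at 75.4 CPM in basal-like and 148 in luminal-like cells of GR18 and at 80.9 and 186 in GR19, and Gsta4 at 109 and 248 in GR18 and at 86.1 and 149 in GR19. On the basal side, Gsto1 stood at 217 CPM in basal-like and 106 in luminal-like cells of GR18 and at 225 and 149 in GR19, and Aldh4a1 at 66.3 and 44.6 in GR18 and at 68.8 and 32.3 in GR19. Aldh2, Aldh7a1 and Aldh9a1 differed by less than 0.32 on the log2 scale in either library.

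**Figure D5:**
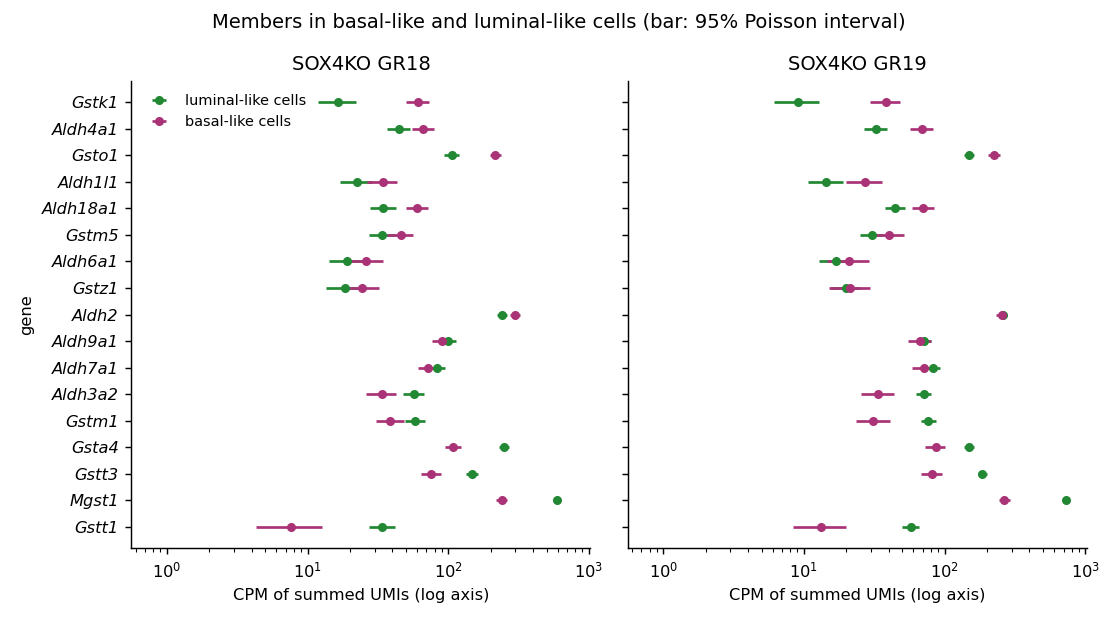
CPM of summed UMIs (x axis, log scale) in basal-like and luminal-like cells of GR18 and GR19 for the 17 members past the minimum (y axis), with 95% Poisson intervals. Gstk1, Gsto1 and Aldh4a1 lie higher in basal-like cells, and Mgst1, Gstt1, Gstt3 and Gsta4 in luminal-like cells.

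The 29 luminal-like cells of GR17 were set beside the cells of its cluster 1. Gstt3 stood at 162 CPM (133 to 195) in these luminal-like cells and 19.8 (16.7 to 23.4) in cluster 1, Mgst1 at 412 (365 to 464) and 115 (107 to 123), and Aldh3a1 at 13.5 (6.16 to 25.6) and 98.8 (91.6 to 106). Aldh2 was also higher in the luminal-like cells, at 270 CPM (232 to 312) and 163 (154 to 173), while Gsto1 was lower at 135 (108 to 166) and 250 (238 to 262), as was Aldh18a1 at 21.0 (11.5 to 35.2) and 55.6 (50.2 to 61.4). The intervals of Gstk1 (12.0 and 14.7 CPM) and Aldh4a1 (22.5 and 26.6 CPM) overlapped. Between luminal-like cells of the 3 libraries, which clusters 4 and 5 both supplied, Gstt3 stood at 162, 148 (134 to 164) and 186 (172 to 200) CPM in GR17, GR18 and GR19, and the GR17 interval overlapped both others. Mgst1 stood at 412, 588 (559 to 619) and 729 (701 to 758) CPM, still lowest in GR17. Gsta4 stood at 328 (286 to 375), 248 (229 to 268) and 149 (136 to 162) CPM and Gstm1 at 180 (149 to 215), 57.9 (49.0 to 68.0) and 76.8 (68.0 to 86.5), both highest in GR17. Aldh3a1 stood at 13.5 CPM in GR17 (9 UMIs), 7.83 (4.78 to 12.1) in GR18 and 9.0 (6.16 to 12.7) in GR19, with overlapping intervals. In clusters 2 to 6 of GR18 and GR19, Aldh3a1 stood at 4.58 to 19.4 CPM, Gstt3 at 34.1 to 302 and Mgst1 at 146 to 867. Cluster 1 was nearly all GR17, so makeup by cluster and library cannot be told apart. The part of makeup in the library values of Gstt3, Mgst1 and Aldh3a1 was not tested.

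Around these enzymes in the single-cell libraries, 1 of 13 glutathione supply genes past the minimum was at least 2-fold higher in both SOX4KO libraries, the glutaredoxin Glrx at 42.4, 109 and 116 CPM in GR17, GR18 and GR19, and 0 were lower. None of 2 glutathione peroxidases, 20 genes of NRF2 and its known targets and 4 alcohol dehydrogenases and aldo-keto reductases passed the fold in either direction. Nfe2l2 stood at 175, 205 and 215 CPM, Keap1 at 55.0, 73.9 and 58.2, Nqo1 at 77.3, 140 and 89.7, Gclc at 74.0, 55.6 and 56.5, and Gclm at 101, 84.4 and 87.0. Of the NRF2 list genes called in bulk, Abcc1 stood at 41.1, 41.1 and 35.1 CPM. Abcc3 stood at 1.43, 2.37 and 0.844 CPM and Osgin1 at 3.89, 9.74 and 12.1.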

How the data were processed

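Bulk RNA was sequenced from 2 control and 3 SOX4KO lines, and single cells from 1 control and 2 SOX4KO lines. Raw read counts per Ensembl gene from HTSeq were deposited without normalization, as were UMI counts per gene and plate well. The submitters' processing notes name STAR 2.4.2a, Picard, HTSeq and the build NCBIM37/mm9, and the strand setting is not given in the sources used here. The kit was directional and selected poly-A RNA. The members and lists were chosen with earlier results of these data known.

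The bulk counts of all genes were filtered with filterByExpr, scaled by TMM and fitted with glmQLFit and glmQLFTest of edgeR 4.0.16 (R 4.3.3), called at an adjusted p under 0.1, with DESeq2 1.42.0 as an alternative. Symbols and exon lengths came from GENCODE on GRCm38. Single-cell wells with at least 1000 UMIs were kept, so 15 wells of GR17, 15 of GR18 and 22 of GR19 were dropped, and summed UMIs became CPM with 1 CPM added for log2 ratios, which understates the change of low genes. Clusters came from Seurat 5.3.0 (2000 variable genes without the members, 10 principal components, resolution 0.5). A cluster was named, by a rule set after the clusters were seen, where the median log2 level of 1 marker list was over 0.4 above the other cells and that of the other list was below 0. No doublet caller was run, and the cells of cluster 4 had the highest median, 28788.5 UMIs. Columns are plate wells, which carry the same numbers in every library, so shared barcodes say nothing of shared cells. Intervals are exact Poisson intervals at 95% for counting error. Nothing in the labels says that lines came from separate animals, and p-values measure the spread between clones.

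Genes were named by rule: every member tested in bulk at least once, full statistics for called members and the 5 largest rises and falls, values by line for these and for the most counted member of each family, and pathway genes if called. Gstm4, Gstm7 and other members without line values are given by fold change. The bulk and single-cell steps were tested on simulated data. In the simulated bulk comparison of 3 lines against 2, 184 of 200 genes changed 3-fold were recovered with 15 false calls among 11682 genes. Every simulated gene had the same spread between lines (dispersion 0.0429), whereas real genes differ in spread. The recovery therefore checks the steps and does not give the power for single members.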

Additional observations from a re-analysis of the deposited data

How the results depend on the processing

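No paired analysis was possible because the labels give the lines no shared replicate numbers. Of 178 recomputed values, 133 kept their direction and side of the threshold, or stayed within 1.5 times of a count or within the spread of a value. Called members numbered 4 higher and 1 lower. Leaving out 1 SOX4KO line gave 2 to 5 members higher and 0 to 1 lower. Over all 11499 to 11612 genes tested in these fits, 406 to 624 were higher and 240 to 382 lower. With any 1 of the 5 lines left out, the members' median log2 fold change ranged from 0.10 (without H4) to 0.37 (without H7). An adjusted p under 0.05 left 1 higher and 0 lower by edgeR, and all genes were not counted at this threshold. An unadjusted p under 0.05 by edgeR was found for 9 of the 30 members tested and for 2113 of all 11682 genes. DESeq2 called 6 and 1 members at 0.1, and 676 and 323 of all genes. With no filter beyond 1 count, 7 of 39 members were higher, beside 1008 of all 17930 genes. Of the 4 pathway lists, 4 genes rose and 1 fell. DESeq2 called 9 higher, the fit without the filter 10 higher and 2 lower, and leaving out 1 SOX4KO line 5 to 7 higher and 1 lower. Without WT1 or WT3 a single control line remains, whose spread is assumed to be that of the SOX4KO lines. The fold change of Aldh3b2 turned to 0.0837 without WT1 and to 0.20 without H7.

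In single cells, a minimum of 50 CPM left 0 members lower, because Aldh3a1 falls under it, and a minimum of 5 CPM gave 5 higher with a median of 0.41, as it admits Aldh1l2, Aldh6a1 and Gstt1. With 1 SOX4KO library left out, 2 to 3 members were higher and 2 lower, and the median was 0.16 to 0.27. Shares over all genes were not computed for these single-cell settings. Both other clusterings gave the same counts between basal-like and luminal-like cells. The cause of the other changes was not tested.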
